A study of Mus musculus with 4 samples.

Results

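Endothelial leukocyte adhesion molecules were followed as a named list of 7 genes (Vcam1, Icam1, Icam2, Sele, Selp, Selplg and Madcam1) of the 32286 genes in the count tables. The list was given by gene name, with no threshold on a measured value. Their transcripts were counted in single-cell RNA-seq of lungs from 2 WT and 2 Tubb3-/- mice, all of which received 0.8 U/kg bleomycin into the trachea and were taken at day 14, at the start aged 8 to 11 weeks. Tubb3-/- mice carry Cre in both copies of Tubb3, at the start of translation, a design that removes class III β-tubulin (Tuj1) from all cells and at every age, and the WT mice were littermates. All groups were exposed to bleomycin, so the values describe injured lungs and make no comparison with healthy ones. Each mouse gave a whole-cell library, depleted of TER-119+ erythrocytes and sorted for live cells, and a mural cell-enriched library, depleted of CD31+, CD45+, EpCAM+ and TER-119+ cells and sorted for MCAM+ PDGFRα- and MCAM- cells at equal parts.

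Leukocytes leave blood in steps. Selectins on activated endothelium, P-selectin (Selp) and E-selectin (Sele), bind glycosylated ligands such as PSGL-1 (Selplg) on leukocytes and let them roll. Immunoglobulin-family molecules then hold them: ICAM-1 and ICAM-2 bind β2 integrins, VCAM-1 binds α4β1 integrin, and MAdCAM-1, known from gut and its lymphoid tissue, binds α4β7 integrin. Sele, Vcam1 and Icam1 are textbook targets of NF-kB after TNF or IL-1, ICAM-2 is made by resting endothelium, and lung capillaries are known to hold and pass leukocytes with less need for selectins than systemic venules.

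The deposited libraries held 32121 cells, of which 30860 lay within the limits on quality, with 41462258 to 95036340 gene UMIs (unique molecular identifiers, counted transcripts) per library and a median of 9186 to 16299 UMIs per cell. Libraries of 1 pool shared no cell barcode, and 16 pairs across the pools shared 59 in all. The targeted gene, Tubb3, stood at 1.93 and 0.868 CPM in the WT and at 0.262 and 0.321 CPM in the Tubb3-/- whole-cell libraries, and Cre had 0 UMIs in the WT libraries but only 0 to 2 in each Tubb3-/- library, too few to check the genotype. CPM are the UMIs of a gene per 1000000 UMIs of the same mouse and cell group. Endothelial cells (ECs) were the 3222 cells with at least 2 UMIs of Cdh5 and fewer than 2 of each other group's gene, and 499, 783, 984 and 956 of them came from WT 1, WT 2, Tubb3-/- 1 and Tubb3-/- 2, the order kept below. By the same limits, types were 1819 general capillary cells (gCap, Gpihbp1 with no UMI of the 4 other type genes), 364 aerocytes (aCap, Ednrb), 167 arterial (Gja5), 129 venous (Slc6a2) and 36 lymphatic cells (Prox1), and 707 ECs fell in no type. The other groups were 6152 Ptprc cells (leukocytes), 6982 Pdgfra cells (fibroblasts), 579 Msln cells (mesothelium), 6246 mural cells (Higd1b or Myh11) and, added as a comparator, 528 Epcam cells (epithelium). Of 5 check markers, all 5 were highest in the labelled group for ECs, leukocytes, mesothelium, mural cells, epithelium, aerocytes, arterial and lymphatic cells, against 4 for venous cells (not Nr2f2), 3 for gCap cells (not Aplnr or Plvap) and 3 for Pdgfra cells (not Dcn or Lum). Of the mural cells 5722 fell to Myh11 and 84 to Higd1b when split by these 2 genes, so their sums are mostly those of Myh11 cells, and the lymphatic cells (7, 2, 12 and 15 a mouse) were too few to test. In replicate 1 of both genotypes Xist was low (21.1 and 17.0 CPM) and in replicate 2 high (638 and 639 CPM), with the reverse for Ddx3y, so replicate number and the sex pattern of these genes coincided and cannot be told apart.

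The members lie at 6 places in the genome (mm10, GENCODE M21 gene models). Sele (chr1:164048234-164057677) and Selp (chr1:164115264-164150026) stand on the plus strand of the same chromosome. Icam1 (chr9:21015985-21028817, plus strand) is followed by Icam4 and Icam5 within 23.1 kb. Vcam1 (chr3:116109949-116129688), Icam2 (chr11:106377656-106388075) and Selplg (chr5:113818536-113832644) are on the minus strand, and Madcam1 (chr10:79664559-79668537) on the plus strand. The antisense models Gm47079, Gm43109 and Gm16587 overlap Icam1, Vcam1 and Selp, as does the minus-strand lincRNA Gm16548 for Selp. The strand setting of the counting is not given in the sources used here, and whether reads of such pairs were told apart was not checked. Promoter windows, 250 bases before to 50 after the RefSeq start (build GRCm38.p6, plus strand for all), were held for 4 of the 7 members. They are shown for Icam1, Sele and Selp because these 3 stood highest in the same endothelial type below. Capitals mark matches on either strand to GGNNNTTCC, a loose form of the NF-kB motif, and to TATAAA.

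Icam1, chr9:21015690-21015989: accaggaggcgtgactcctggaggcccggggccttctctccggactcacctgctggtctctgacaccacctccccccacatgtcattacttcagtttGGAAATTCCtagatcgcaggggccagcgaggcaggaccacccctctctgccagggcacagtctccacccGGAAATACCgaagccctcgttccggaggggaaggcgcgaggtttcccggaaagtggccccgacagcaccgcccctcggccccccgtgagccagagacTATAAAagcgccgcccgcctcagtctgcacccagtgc
Sele, chr1:164047984-164048283: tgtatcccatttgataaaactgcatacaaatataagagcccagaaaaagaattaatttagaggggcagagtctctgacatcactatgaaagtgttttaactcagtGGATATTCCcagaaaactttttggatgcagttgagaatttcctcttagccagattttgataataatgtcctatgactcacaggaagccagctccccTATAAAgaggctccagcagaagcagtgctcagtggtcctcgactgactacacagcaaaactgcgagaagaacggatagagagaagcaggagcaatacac
Selp, chr1:164115014-164115313: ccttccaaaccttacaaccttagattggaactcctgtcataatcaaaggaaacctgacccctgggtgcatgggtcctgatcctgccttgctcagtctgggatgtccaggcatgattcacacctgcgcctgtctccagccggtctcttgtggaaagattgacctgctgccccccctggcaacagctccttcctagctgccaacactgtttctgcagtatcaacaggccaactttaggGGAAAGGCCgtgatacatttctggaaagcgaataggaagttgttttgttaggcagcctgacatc

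GGNNNTTCC was found in 18.5% and TATAAA in 13.6% of the 32851 promoter windows of this length, both strands searched, with no overlap between the motifs in the windows shown. The first match in Icam1, GGAAATTCC, fits the motif GGNNNTTCC on both strands and starts 198 bases before the gene start of the GENCODE model. The next, GGAAATACC, starts 129 bases before that gene start, and TATAAA 32 bases before it. In Sele the matches start 145 bases (GGATATTCC) and 49 bases (TATAAA) before the start. In Selp the only match, GGAAAGGCC, starts 14 bases before it, and TATAAA is not in the window. In Madcam1, which had 0 UMIs in ECs and is not shown, GGNNNTTCC matches start 83 and 70 bases before the start. TATAAA is not in that window either. These are matches of letters, and binding of a factor was not measured.

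Across cell groups 6 members with enough counts to be tested fell into 4 patterns. Icam2, Sele and Selp were endothelial genes: in the whole-cell libraries 80.6%, 79.1% and 78.2% of their UMIs lay in ECs. Selplg was a leukocyte gene, with 75.3% of its UMIs in Ptprc cells and 0.74% in ECs. Vcam1 UMIs were mostly in fibroblasts (65.4% in Pdgfra cells, 9.10% in ECs), and Icam1 was spread over ECs (29.3%), Pdgfra cells (19.0%), Ptprc cells (18.5%) and Epcam cells (7.99%). Madcam1 had 29 UMIs in all libraries together, of which 10 lay in Pdgfra cells (0.0367 to 0.104 CPM), 1 in Msln and 1 in Epcam cells, 12 in cells of more than 1 group, 5 in cells of none and 0 in ECs and in Ptprc and mural cells.

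**Figure D1:**
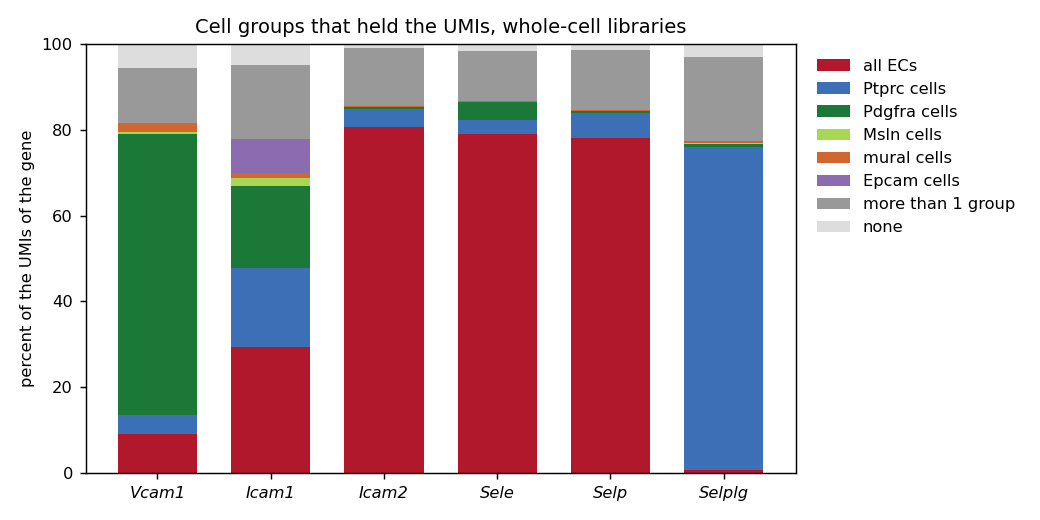
Share of each member's UMIs (y axis, percent) held by each cell group in the 4 whole-cell libraries together, 1 stacked bar per gene; "more than 1 group" are cells with at least 2 UMIs of the genes of 2 or more groups, which were left out of all sums. ECs hold most of the UMIs of Icam2 (80.6%), Sele (79.1%) and Selp (78.2%), Pdgfra cells most of Vcam1 (65.4%) and Ptprc cells most of Selplg (75.3%).

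Tested over the 4 mice with mouse as a block (edgeR, adjusted over all genes), all 6 differed between ECs and Ptprc cells, where 70.2% of genes did, and all 6 between ECs and Pdgfra cells, where 67.7% did. Between ECs and mural cells 5 of 6 differed, against 67.4% of genes, and between ECs and Msln cells 5 of 6, against 59%. With such shares over all genes, the counts say little about the members, and the sizes carry the description. Icam2 was higher in ECs than in each other group, by 5.57 on the log2 scale against Ptprc cells (SE 0.13) and by 8.5 to 8.87 against the others. Selp was higher by 4.90 against Ptprc cells and by 7.40 to 8.57 against the others, and Sele by 5.84 against Ptprc, 4.74 against Pdgfra and 5.68 against mural cells. In Msln cells Sele was at 0 UMIs, which allows up to 0.292 CPM over the 4 mice, so ECs were at least 78.8-fold higher. Vcam1 was higher in ECs than in Ptprc cells (1.94, SE 0.22) but lower than in Pdgfra cells (-2.51, SE 0.21), and against mural cells its difference was -0.06 (SE 0.20, adjusted p = 0.802). Icam1 was higher in ECs than in Ptprc, Pdgfra and mural cells (1.94, 1.03 and 2.72), and against Msln cells the difference was 0.13 (SE 0.17, adjusted p = 0.531). Selplg was lower in ECs than in Ptprc cells by -5.47 (SE 0.22), and higher than in Pdgfra and mural cells (1.67 and 1.29), at levels of at most 10.6 CPM in any mouse. In the mural cell-enriched libraries alone, from which CD31+ and CD45+ cells had been depleted, Vcam1 turned to -1.85 against Ptprc cells and Selplg to -0.10 against Pdgfra and -1.24 against mural cells. In the whole-cell libraries alone the Selplg difference from mural cells was 0.05 (adjusted p = 0.909), and from Msln cells -0.03 (adjusted p = 0.965). Most ECs (2452 of 3222) came from whole-cell libraries, but 5044 of 6982 Pdgfra and 5633 of 6246 mural cells from the enriched ones. EC Sele was at 39.9, 24.2, 33.0 and 14.5 CPM in the whole-cell libraries. In the enriched ones it was at 0, 0.832, 2.56 and 0.601 CPM. Pdgfra cells stood there at 2.13, 0.549, 0.133 and 0.293 CPM and mural cells at 0.232, 0, 0.579 and 0.577 CPM. The Sele sizes against Pdgfra, Msln and mural cells thus rest on ECs of the whole-cell libraries.

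Against Msln cells 2 calls rested on single mice. Vcam1 was 0.59 higher in ECs (SE 0.22, adjusted p = 0.0298), which became 0.36 without WT 1 (adjusted p = 0.23) and 0.37 without WT 2 (adjusted p = 0.172). Selplg was 0.99 higher (SE 0.40, adjusted p = 0.0407), with an adjusted p of 0.199 without WT 1 and 0.0862 without WT 2.

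Within the endothelium the selectins were venous genes. Selp, which endothelium stores as protein in Weibel-Palade bodies, stood at 3153 and 1198 CPM in the venous ECs of the WT mice and at 1418 and 672 CPM in those of the Tubb3-/- mice. In arterial ECs it was at 283, 92.5, 81.2 and 25.6 CPM, in gCap ECs at 23.6, 2.27, 14.4 and 9.80 CPM, and in aCap ECs at 0 to 3.43 CPM. No value of one of the first 3 types overlapped the next, so the order venous, arterial, gCap held in these mice, while gCap and aCap overlapped. Venous ECs were higher than the mean of the other 3 types by 6.78 on the log2 scale (SE 0.21, adjusted p = 1.89e-17), arterial ECs by 1.47 (SE 0.32, adjusted p = 0.00166), and gCap and aCap ECs were lower, by -2.56 and -5.69. The 129 venous cells, 4.0% of ECs, held 47.7% of the EC UMIs of Selp, and the 707 ECs of no type held 42.8%.

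Sele, made by endothelium after cytokine exposure, followed the same order with fewer counts. It was at 494, 203, 148 and 56.4 CPM in venous, at 109, 69.3, 42.2 and 79.1 CPM in arterial and at 1.15, 1.95, 10.2 and 0.363 CPM in gCap ECs. Venous and arterial values overlapped, and both lay above all gCap values. Venous ECs were 5.03 higher than the mean of the others (SE 0.45, adjusted p = 6.38e-09) and arterial ECs 3.14 higher (SE 0.54, adjusted p = 0.000149), whereas gCap ECs differed by -2.29 (SE 1.29, adjusted p = 0.299). In aCap ECs only 2 UMIs were counted, in 1 mouse, so the fitted difference of -5.88 there depends on how zeros are handled. Few cells carried these counts: Sele UMIs were found in 3, 4, 10 and 3 venous cells of the mice, and the cell with most UMIs held 63.3%, 74.3%, 28.9% and 80.0% of the mouse's venous Sele. For venous Selp the top cell held 17.2% to 33.9%. In gCap ECs the value of Tubb3-/- 1 came from 55 UMIs in 6 cells.

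**Figure D2:**
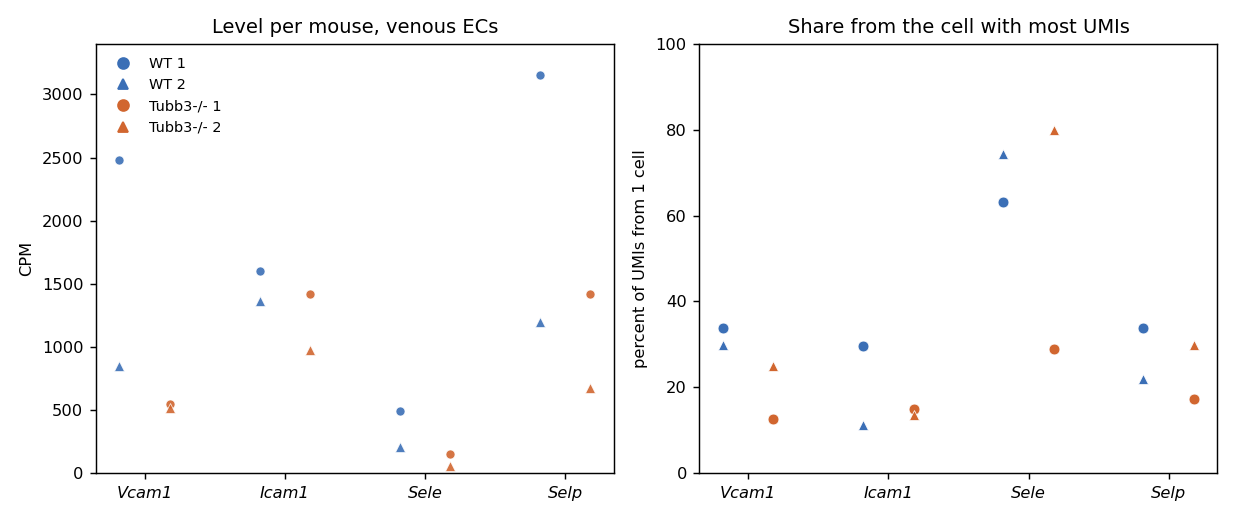
Left, level of 4 members in venous ECs (y axis, CPM) by mouse; right, percent of each mouse's venous UMIs that lay in the 1 cell with most of them. Circles are replicate 1 and triangles replicate 2, blue WT and orange Tubb3-/-; WT 1 is highest for Selp (3153 CPM) and Vcam1 (2478 CPM), and for Sele 1 cell held up to 80.0% of the UMIs.

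The immunoglobulin-family members divided by type. Vcam1 was at 2478, 845, 550 and 516 CPM in venous and at 471, 286, 315 and 83.4 CPM in arterial ECs, but at 12.2 to 18.4 CPM in gCap and 12.6 to 17.3 CPM in aCap ECs. The 2 capillary types overlapped and lay far below every venous and arterial value, and all venous values lay above all arterial ones. Venous ECs were 4.57 higher than the mean of the other types (SE 0.19, adjusted p = 9.67e-15) and arterial ECs 2.12 higher (SE 0.22), with gCap and aCap ECs at -3.22 (SE 0.27) and -3.46 (SE 0.31). Icam1 had a narrower span: 1601, 1360, 1420 and 974 CPM in venous, 814, 651, 455 and 180 CPM in arterial, 444, 455, 419 and 381 CPM in aCap and 400, 406, 229 and 216 CPM in gCap ECs. It was 1.86 higher in venous ECs (SE 0.15, adjusted p = 1.12e-09) and 1.18 lower in gCap ECs (-1.18, SE 0.17), while arterial ECs differed by -0.21 (SE 0.17, adjusted p = 0.478). The lower Icam1 of aCap ECs (-0.46, SE 0.16, adjusted p = 0.0298) was lost without WT 1 (adjusted p = 0.14), WT 2 (0.141) or Tubb3-/- 1 (0.0827).

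Icam2 ran the other way. It was at 1518, 1433, 1610 and 1373 CPM in aCap ECs, 558 to 612 CPM in gCap, 541 to 651 CPM in arterial and 282, 402, 267 and 390 CPM in venous ECs. Aerocytes were 1.57 higher than the mean of the other types (SE 0.10, adjusted p = 4.35e-12) and venous ECs 1.14 lower (-1.14, SE 0.12, adjusted p = 1.35e-07), and gCap and arterial ECs overlapped and differed by -0.24 and -0.19 (adjusted p = 0.154 and 0.301). After thinning each cell to 2000 UMIs, 88.5% of aCap ECs had an Icam2 UMI against 0.334% of Pdgfra cells, a type that should lack it, as means of the 4 mice. Unthinned, the shares were 96.6% to 100.0% and 1.95% to 3.94%, at median depths of 8092.5 and 18479 UMIs.

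**Figure D3:**
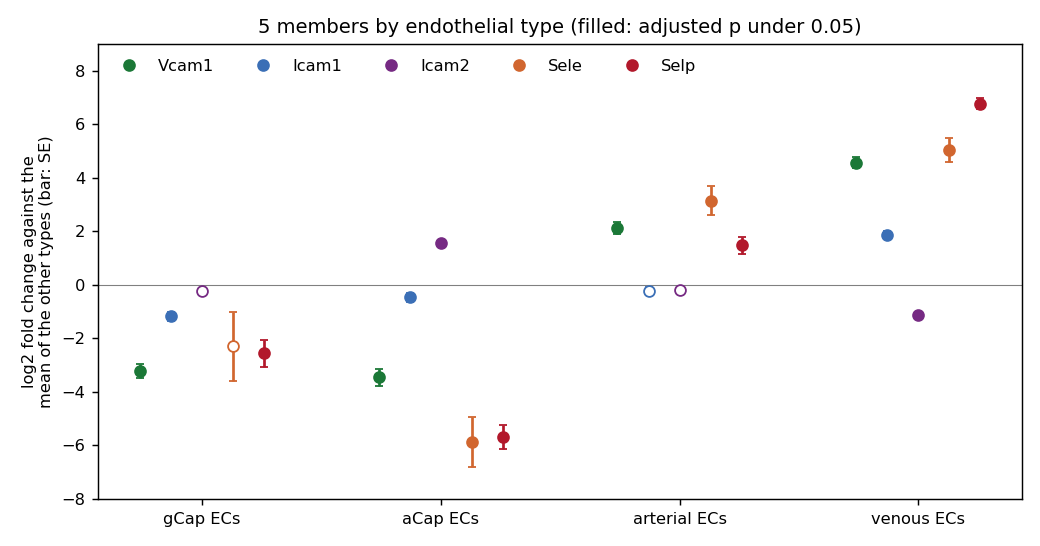
Log2 fold change of 5 members in each endothelial type against the mean of the other 3 types (y axis; bar, SE; 4 mice per type, mouse as a block); filled points passed an adjusted p of 0.05 and open ones did not. Vcam1, Icam1, Sele and Selp are above 0 in venous ECs (1.86 to 6.78) and Icam2 below (-1.14), and in aCap ECs Icam2 alone is above 0 (1.57).

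In all, 5 of 5 members tested differed in venous ECs (4 higher, 1 lower), where 20.5% of genes did. The counts were 5 of 5 in aCap ECs (1 higher, 4 lower; 37.5% of genes), 3 of 5 in arterial ECs (all higher; 14.8%) and 3 of 5 in gCap ECs (all lower; 13.1%). Selplg and Madcam1 had too few counts to be tested there. From a list of 15 genes of TNF, IL-1 and NF-kB signalling, 10 were higher in venous ECs and none lower, with a median of 0.80 against -0.02 over all genes. Of all genes 11.5% were higher there. In aCap ECs 10 of the 15 were lower and 2 higher (median -0.68), where 18.9% of all genes were lower. In gCap ECs 4 were lower and 0 higher (6.22% of all genes lower), and in arterial ECs 1 was lower and 2 higher. Each type was set against the mean of the others, so these contrasts are not independent. In venous ECs 1 leukocyte integrin was higher and 1 lower of 4 tested. Of selectins and enzymes of selectin ligands 2 were higher of 8 there, and of other docking and junction genes 4 higher and 6 lower of 14. Ackr1, a chemokine-binding receptor of venules, was at 413, 110, 402 and 69.9 CPM in venous ECs and at most 2.16 CPM in gCap, aCap and arterial ECs.

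Venous cells with a selectin tended to hold the others. Of 73 venous cells with a Selp UMI, 56 (76.7%) had Vcam1, against 23.2% of the 56 cells without Selp. Of the 20 cells with Sele 19 had Selp and 19 had Vcam1. Among the 109 cells without Sele, 49.5% had Selp and 45.9% had Vcam1. Cells with Selp were deeper, at a median of 11903 UMIs against 7314.5 without, and cells with Sele stood at 17206.5 against 8838. The part of depth in this overlap was not tested. All 11 venous cells of WT 1, the mouse with the highest Selp and Vcam1, came from its whole-cell library.

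Outside the endothelium Vcam1 was highest in Pdgfra cells, at 736, 553, 473 and 444 CPM, second only to venous ECs over the groups, and its ranges in Pdgfra cells and arterial ECs overlapped. Among fibroblasts it was at 433 to 816 CPM in alveolar (Scube2) and peribronchial (Hhip) cells. In fibrotic (Cthrc1) cells it was at 170 to 351 CPM. Levels of inflammatory (Lcn2) and adventitial (Pi16) fibroblasts are not given here. The inflammatory ones, 10, 8, 39 and 11 cells a mouse, held 234, 74, 416 and 183 Vcam1 UMIs. In leukocytes Vcam1 was at 21.6 to 25.2 CPM, and in the C1qa macrophages among them at 136, 209, 68.2 and 66.9 CPM. These macrophages held 280, 174, 234 and 189 of the 474, 398, 573 and 410 Vcam1 UMIs of the leukocytes. Icam1 of Epcam cells, at 395, 520, 482 and 530 CPM, overlapped that of arterial, aCap and Msln cells, and mural cells were lowest at 41.3 to 76.0 CPM. The level plot over groups shows these orders.

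**Figure D4:**
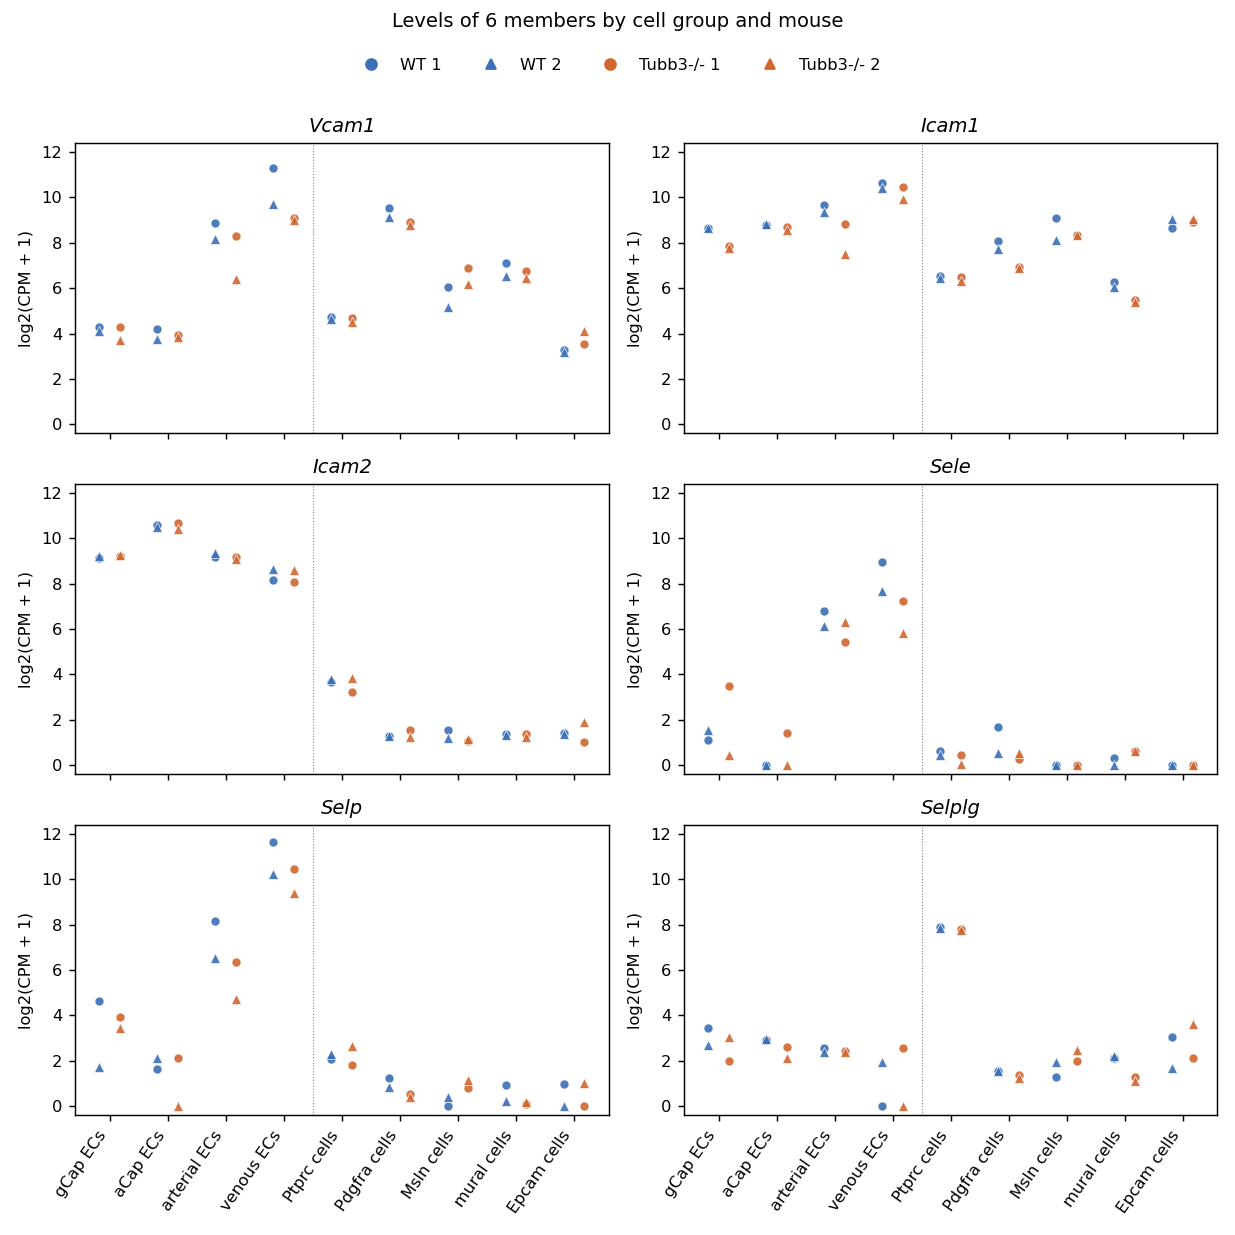
Level of 6 members (all but Madcam1) (y axis, log2 of CPM plus 1) in 4 endothelial types and 5 other cell groups, 1 point per mouse (circles replicate 1, triangles replicate 2, blue WT, orange Tubb3-/-); the dotted line parts ECs from the other groups. Sele and Selp peak in venous ECs, Icam2 in aCap ECs, Selplg in Ptprc cells, and Vcam1 values of Pdgfra cells (444 to 736 CPM) overlap those of arterial ECs.

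The leukocyte side of the pairs was in Ptprc cells. Selplg was at 235, 231, 223 and 214 CPM there. Among leukocytes it was highest in NK cells (432 to 593 CPM) and neutrophils (375 to 404 CPM), followed by T cells (269 to 321 CPM), and was low in B cells (28.0 to 53.4 CPM). Itgb2, the shared chain of the β2 integrins that bind ICAMs, was at 339 to 438 CPM in Ptprc cells and 9.16 to 10.3 CPM in ECs, and its partner Itgal was highest in neutrophils (389 to 477 CPM). The other partner, Itgam, was at 225 to 294 CPM in neutrophils and 156 to 352 CPM in Ly6c2 monocytes, which overlapped. Itga4, which binds VCAM-1, was at 248 to 287 CPM in Ptprc cells, but also at 53.7 to 72.4 CPM in mural cells. Itgb7, its partner for MAdCAM-1, was at 74.0 to 109 CPM in Ptprc cells and highest in T cells (205 to 243 CPM), while Madcam1 was at 0 UMIs in ECs, which allows up to 0.103 CPM.

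Genes whose mean level over 11 cell groups was most like a member's were named by Pearson's r of log2 (CPM plus 1), a description in which groups of a mouse share a library. For Selp they were Ano2 (0.954), Kcnc2 (0.945) and Gm48749 (0.938), and for Sele Foxo1 (0.943), Ptprr (0.932) and Pthlh (0.914), with 0.896 between the 2 selectins. Icam2 lay closest to Gata2 (0.992), Cldn5 (0.992) and Clec1a (0.991), and Selplg to Snx20 (0.980), Tank (0.975) and Mir142hg (0.974). The closest to Vcam1 were Crispld1 (0.875), Cthrc1 (0.848) and the IL-1 receptor Il1r1 (0.846), and to Icam1 Vamp5 (0.889), Baiap2 (0.877) and Zfp598 (0.864). Between Vcam1 and Icam1 r was 0.279. In all, 13063 genes were compared.

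Between genotypes, the question was whether loss of Tubb3 moved the members in any cell group. Icam1 in gCap ECs was the single member that passed the test with genotype as the only term. More members were called with replicate number, which coincided with the sex pattern, added as a block, as given near the end. Icam1 in gCap ECs was lower in the Tubb3-/- mice. Its level was 400 and 406 CPM in the WT and 229 and 216 CPM in the Tubb3-/- mice, from 695, 1252, 1238 and 1193 UMIs, so the groups did not overlap. It fell by 0.83 on the log2 scale (log2 fold change -0.83, SE 0.11, adjusted p = 0.0208), where 0.792% of genes were called. The share of gCap ECs with an Icam1 UMI after thinning to 2000 UMIs was 33.8% and 37.6% in the WT and 23.5% and 23.7% in the Tubb3-/- mice, with 21 shallower cells left out (exact two-sided permutation p = 0.33, the smallest that 2 against 2 mice allow). Unthinned it was 54.2%, 60.8%, 50.5% and 53.3%, with median UMIs per gCap cell of 5998 and 6234 in the WT and 8259 and 8414.5 in the Tubb3-/- mice. Mural cells, with a thinned 6.19% to 10.3%, had the lowest share with an Icam1 UMI of the groups tested. The fold was -0.82 in the whole-cell libraries alone (adjusted p = 0.0172) and -1.12 in the mural cell-enriched ones alone (adjusted p = 0.0301). Without Tubb3-/- 1 it was -0.89 (adjusted p = 0.115), without Tubb3-/- 2 -0.77 (adjusted p = 0.191), and in cells gated at 3 UMIs -0.88 (adjusted p = 0.0521), so the call did not survive these, while without a WT mouse it was kept.

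Other values in gCap ECs are given beside Icam1. Markers lower or higher without overlap are counted in each list. Over all genes with at least 10 UMIs in gCap ECs, 24.7% were lower and 19.4% higher in this way. Counts of 1 of 5 lie near these shares. The shares of all genes in the other groups are given below. Irf1, an interferon-responsive transcription factor and the only gene of the signalling list that was called, was at 545 and 557 CPM in the WT and 273 and 326 CPM in the Tubb3-/- gCap ECs (log2 fold change -0.85, SE 0.12, adjusted p = 0.0238). The 5 epithelial markers summed to 377 to 396 CPM in WT and 273 to 278 CPM in Tubb3-/- gCap ECs (2 of 5 lower without overlap, none at 0), against 40380 to 102264 CPM in Epcam cells themselves. The 5 mural markers summed to 201 to 219 and 141 to 154 CPM (2 of 5 lower, 1 higher, none at 0), against 12579 to 15640 CPM in mural cells. The 5 gCap markers themselves summed to 5527 to 6151 CPM in the WT and 5113 to 5483 CPM in the Tubb3-/- mice (1 of 5 lower, none at 0). The 5 arterial markers summed to 340 to 353 and 389 to 522 CPM, and the 5 venous markers to 291 to 310 and 316 to 347 CPM. In each of these 2 lists 1 marker was lower, 1 higher and 1 at 0 in all mice. A list of 10 immediate-early and heat shock genes, chosen after values were seen, summed to 8297 and 9853 CPM in the WT and 8263 and 7295 CPM in the Tubb3-/- gCap ECs, with 4 of 10 lower without overlap. Their part in the result was not tested.

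In the other groups Icam1 did not pass the test. In all ECs it was at 472, 506, 380 and 309 CPM (-0.48, SE 0.13, adjusted p = 0.153; 1.21% of genes called), which without WT 1 was -0.52 (adjusted p = 0.0268). Arterial ECs gave -1.20 (SE 0.35, adjusted p = 0.162; 0.41% called), which without Tubb3-/- 1 was -2.10 (adjusted p = 4.58e-07), venous ECs -0.34 (SE 0.27, adjusted p = 0.952; 0% called) and aCap ECs -0.16 (SE 0.23, adjusted p = 0.963; 0% called). In these types the WT and Tubb3-/- values were apart in arterial and aCap ECs and overlapped in venous ECs. Over all ECs the 5 aCap markers summed to 779 to 823 CPM in the WT and 559 to 599 CPM in the Tubb3-/- mice (5 of 5 lower, none at 0). The 5 lymphatic markers summed to 231 to 282 and 405 to 461 CPM (4 of 5 higher, none at 0). The part of such differences in make-up in the values of all ECs was not tested. Pdgfra cells were at 270, 212, 123 and 116 CPM (-1.03, SE 0.17, adjusted p = 0.112; 0% called) and mural cells at 76.0, 65.9, 43.9 and 41.3 CPM (-0.74, SE 0.13, adjusted p = 0.0843; 0.105% called). Both lay apart by genotype, and both passed without WT 1 (adjusted p = 0.0102 and 0.0192) or without WT 2 (0.00658 and 0.000925), and in DESeq2 (1.53e-05 and 0.00197). The immediate-early list summed to 13499, 13409, 9143 and 9345 CPM in Pdgfra cells (10 of 10 genes lower) and to 16254, 15298, 11987 and 11648 CPM in mural cells (7 of 10 lower), and Irf1 was at 209, 173, 88.3 and 85.6 CPM in Pdgfra and at 237, 158, 100.3 and 89.0 CPM in mural cells. In mural cells the 5 fibroblast markers summed to 2189 to 2482 CPM in the WT and 4066 to 4899 CPM in the Tubb3-/- mice (4 of 5 higher, none at 0). The 5 gCap markers summed to 109 to 112 and 179 to 189 CPM there (2 of 5 higher, 1 lower, none at 0). The part of these lists and of Irf1 in the Icam1 values was not tested. Msln cells were at 547, 278, 323 and 323 CPM (-0.35, SE 0.27, adjusted p = 0.730; 0.113% called; -0.76 and adjusted p = 0.032 without WT 2) and Ptprc cells at 90.6, 86.2, 89.0 and 78.3 CPM (-0.05, SE 0.10, adjusted p = 0.892; 0% called).

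**Figure D5:**
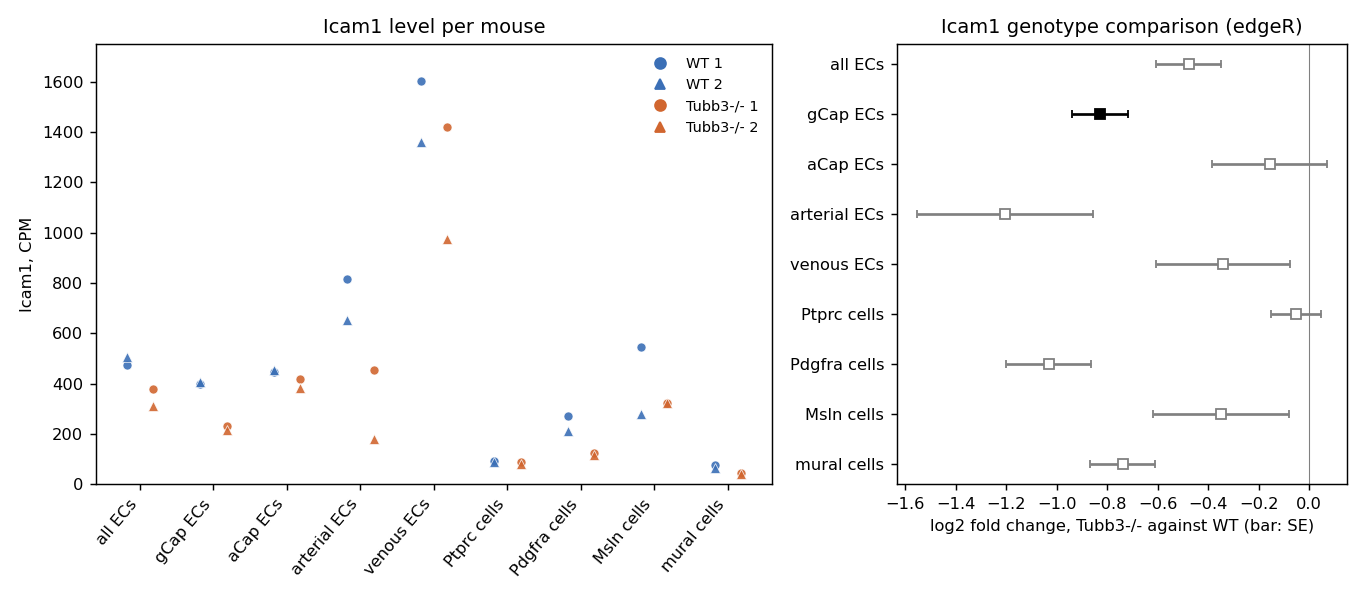
Left, Icam1 level (y axis, CPM) by mouse in 9 cell groups (circles replicate 1, triangles replicate 2, blue WT, orange Tubb3-/-); right, log2 fold change of Tubb3-/- against WT (bar, SE; 2 mice a genotype), filled where the adjusted p was under 0.05. All 9 estimates lie below 0, from -1.20 in arterial ECs to -0.05 in Ptprc cells, and only gCap ECs (-0.83) passed.

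Where 0 genes were called by edgeR, an unadjusted p under 0.05 was found for 403 genes in aCap ECs, 324 in venous ECs, 1366 in Ptprc cells and 2884 in Pdgfra cells, and DESeq2 called 0, 0, 101 and 672 genes there.

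The size of the Icam1 change was compared between groups by an interaction test, and no member passed it. Against all ECs, 0.287% of genes passed for Ptprc, 0.195% for Pdgfra, 0.023% for Msln and 0% for mural cells. For Icam1 the difference was 0.45 in Ptprc cells (SE 0.25, adjusted p = 0.632) and -0.53 in Pdgfra cells (SE 0.25, adjusted p = 0.521), and the latter passed without WT 2. Against gCap ECs, 0% of genes passed for aCap, 0.0345% for arterial and 0% for venous ECs, and Icam1 differed by 0.67 in aCap ECs (SE 0.31, adjusted p = 1) and 0.51 in venous ECs (SE 0.31, adjusted p = 1). So a change of Icam1 particular to gCap ECs was not shown. The lowest adjusted p of a member was that of Vcam1 in Msln cells (1.40, SE 0.25, adjusted p = 0.0923), which passed without WT 1, and Sele in venous against gCap ECs passed without Tubb3-/- 2.

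Vcam1, Sele and Selp had lower values in Tubb3-/- than in WT venous ECs without passing the test. For Vcam1 the values were 2478 and 845 against 550 and 516 CPM (-1.67, SE 0.40, adjusted p = 0.243) and for Sele 494 and 203 against 148 and 56.4 CPM (-1.64, SE 0.47, adjusted p = 0.503), both apart by genotype. Selp overlapped, at 3153 and 1198 against 1418 and 672 CPM (-1.09, SE 0.43, adjusted p = 0.771). WT 1, with 11 venous cells, was the highest of the 4 mice for all 3, and no call was made with all mice. Without WT 2, which leaves those 11 cells as the WT group, edgeR called all 3 (adjusted p = 3.69e-25, 2.63e-09 and 3.01e-16), and without Tubb3-/- 1 also (0.0451, 0.00157 and 0.0272). In arterial ECs Selp was at 283 and 92.5 against 81.2 and 25.6 CPM (-1.56, SE 0.51, adjusted p = 0.232), and passed without WT 2 (0.0313) or Tubb3-/- 1 (9.58e-06). Arterial Vcam1 (-0.87, SE 0.45, adjusted p = 0.568) passed without Tubb3-/- 1 (9.95e-06), and arterial Sele was at -0.58 (SE 0.36, adjusted p = 0.638). Other markers in arterial ECs are given too, where 16.9% of all genes were lower and 21.9% higher without overlap. The 5 gCap markers summed to 1772 to 3131 CPM in the WT and 3443 to 3685 CPM in the Tubb3-/- mice (4 of 5 higher without overlap, none at 0), and the 5 venous markers to 1409 to 2238 and 1291 to 1340 CPM (2 of 5 lower, 1 higher, none at 0). The 5 epithelial markers summed to 225 to 268 and 325 to 474 CPM (4 of 5 higher, none at 0), and 7 of 10 immediate-early and heat shock genes were lower without overlap. Their part in the arterial Icam1, Vcam1 and Selp values was not tested. In venous ECs the 5 arterial markers summed to 113 to 141 and 194 to 214 CPM (1 of 5 lower, 1 higher). The 5 venous markers summed to 5620 to 6626 and 5401 to 6722 CPM (2 of 5 lower, 1 higher). Irf1 was at 614, 686, 347 and 469 CPM there. Venous Selp of WT 2, Tubb3-/- 1 and Tubb3-/- 2 was at 1415, 1602 and 536 CPM in whole-cell libraries. In the mural cell-enriched ones it was at 433, 374 and 1436 CPM. Their part in the venous values was not tested.

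Vcam1 in all ECs was at 177, 102, 105 and 85.6 CPM (-0.50, SE 0.24, adjusted p = 0.378), with -0.86 and an adjusted p of 0.00117 without WT 2. In Pdgfra cells it was at -0.51 (SE 0.19, adjusted p = 0.260), with -0.72 and 0.0325 without WT 2. Fibrotic (Cthrc1) fibroblasts numbered 53 and 24 cells in the WT and 198 and 117 in the Tubb3-/- mice. The 5 fibroblast markers of Pdgfra cells summed to 6623 to 9817 CPM in the WT and 10502 to 11133 CPM in the Tubb3-/- mice (2 of 5 higher, 1 lower, none at 0), and the 5 mural markers to 348 to 354 and 486 to 671 CPM (1 of 5 higher, 2 lower, none at 0). Their part in the Vcam1 and Icam1 values of Pdgfra cells was not tested. Msln cells had the opposite order, 65.6 and 35.4 CPM in the WT against 118 and 72.2 CPM in the Tubb3-/- mice (0.95, SE 0.32, adjusted p = 0.388), and passed without WT 1 (1.44, adjusted p = 0.00266). The 5 fibroblast markers summed to 3713 to 3869 CPM in WT and 4669 to 5497 CPM in Tubb3-/- Msln cells (3 of 5 higher, 2 lower, none at 0), and their part in the Vcam1 value was not tested. Icam2 in all ECs was at 671, 695, 659 and 673 CPM, with a difference of -0.01 (SE 0.09, adjusted p = 0.977). Selplg in Ptprc cells differed by -0.07 (SE 0.08, adjusted p = 0.815), and in mural cells, where it was at 3.43, 3.69, 1.47 and 1.15 CPM, by -1.42 (SE 0.28, adjusted p = 0.108). The 5 immune markers summed to 16.4 to 22.8 CPM in WT and 15.6 to 15.8 CPM in Tubb3-/- mural cells (1 of 5 lower, 1 higher, none at 0). In Ptprc cells they summed to 5181 to 5426 CPM. Their part in the mural Selplg value was not tested.

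Counted without a test, members with at least 10 UMIs that were below the 2 WT values in each Tubb3-/- mouse numbered 1 of 6 in all ECs (Icam1; 24.7% of genes), 1 of 6 in gCap ECs (Icam1; 24.7%), 2 of 4 in aCap ECs (Icam1 and Selplg; 18.1%) and 2 of 5 in arterial ECs (Icam1 and Selp; 16.9%). They were 2 of 5 in venous ECs (Vcam1 and Sele; 14.9%), 1 of 6 in Ptprc cells (Selplg; 23.7%), 5 of 7 in Pdgfra cells (all but Icam2 and Madcam1; 23.7%), 1 of 4 in Msln cells (Icam2; 19.6%) and 3 of 6 in mural cells (Icam1, Selp and Selplg; 20.2%). Members above both WT values in each Tubb3-/- mouse were 2 of 4 in Msln cells (Vcam1 and Selplg; 20% of genes) and 1 of 6 in mural cells (Sele; 21.7%). There were 0 in all ECs (18.9% of genes), gCap (19.4%), aCap (16.7%), arterial (21.9%) and venous ECs (20%), Ptprc cells (17.2%) and Pdgfra cells (23.4%). In ECs as a whole and in gCap ECs the share of members was near that of all genes. In Pdgfra cells it was above it, but with members near the floor. Sele, Selp and Selplg stood at 0.225 to 2.21, 0.343 to 1.35 and 1.35 to 1.93 CPM there. In WT 1 a single Pdgfra cell held 76.9% of the Selp UMIs of that group.

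The 4 partner lists held few calls between genotypes. Of 15 TNF, IL-1 and NF-kB genes, 1 (Irf1) was lower in all ECs (475 and 496 against 250 and 314 CPM, log2 fold change -0.76, SE 0.12, adjusted p = 0.0307) and in gCap ECs, and 0 in Ptprc cells. No leukocyte integrin (9, 7 and 10 tested in all ECs, gCap ECs and Ptprc cells), no selectin or ligand-synthesis gene (10, 9 and 12) and no other docking or junction gene (16, 14 and 15) was called. Medians of the lists in gCap ECs were -0.15, -0.21, 0.08 and, for the signalling list, -0.02, against -0.01 over all genes.

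Within gCap ECs, TrkB (Ntrk2) marks the activated capillary cells that the study follows. Cells with at least 2 UMIs of Ntrk2 were compared with those that had none. Such cells made up 28.2% and 10.3% of gCap ECs in the WT and 48.4% and 38.5% in the Tubb3-/- mice. Icam1 was at 384, 171, 191 and 199 CPM in the Ntrk2 cells and at 406, 463, 308 and 251 CPM in those without, lower in the Ntrk2 cells of each mouse. The difference was -0.54 (SE 0.12, adjusted p = 0.0111, 4.64% of genes called), -0.50 without Tubb3-/- 1 (adjusted p = 0.0914), and in DESeq2 -0.58 (adjusted p = 0.676). Vcam1 (-0.40), Selp (-0.50) and Icam2 (0.18, SE 0.06, adjusted p = 0.118) did not pass. Between genotypes Icam1 differed by -0.50 within Ntrk2 cells (SE 0.28, adjusted p = 0.581) and by -0.64 within cells without Ntrk2 (SE 0.15, adjusted p = 0.0818), against -0.83 in all gCap ECs.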

How the data were processed

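UMI counts per gene and cell were deposited by the authors as filtered matrices, made with Cell Ranger 7.1.0 on mm10 with a Cre gene added, and were used as raw counts; 12 tag features were set aside. The 7 genes and the partner lists were chosen with earlier results of these data known. Kept cells had 200 to 7500 genes and at most 15% mitochondrial UMIs. Cells with at least 2 UMIs of the gene of more than 1 group (4626 cells, 15.0%) were left out, which also treated doublets; no doublet caller was run. UMIs were summed per mouse and group over both pools. Sums were tested with edgeR 4.0.16 (R 4.3.3; TMM, filterByExpr, quasi-likelihood test), Benjamini-Hochberg adjusted over all genes, at 0.05, with mouse as a block where groups of the same mice were compared. Groups with under 10 cells in a mouse were not tested. The steps were tested on simulated data. Named genes were the members, partner genes called between genotypes, a few leukocyte-side and venous genes set for their levels (1 of which is not reported here), and the 3 genes most like each member. The genotype samples were separate mice, 2 per genotype. Cells near a limit, other normalizations, DESeq2 1.42.0, single pools and leaving out each mouse were tried as alternatives. Shares and levels carry counting error, and levels were not compared between genes.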

Additional observations from a re-analysis of the deposited data

How the results depend on the processing

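The lower Icam1 of Tubb3-/- gCap ECs kept its direction under all alternatives run (-1.12 to -0.50 on the log2 scale) and lost its call with a gate of 3 UMIs, without either Tubb3-/- mouse and in cells split by Ntrk2; its thinned share difference, -12.1 points, was -5.64 without thinning and -15.3 at 4000 UMIs. Of 869 alternative member folds, 770 kept direction and call, 48 gained and 21 lost a call and 30 turned; of the 502 for the 40 called folds, 475 kept both, 21 lost the call and 6 turned. The cause was not tested.

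Counts of genes called between genotypes moved most, given here beside the count in the report. In all ECs (163), 0 were called with a gate of 1 UMI and none of another group's gene, 81 with no UMI of another group's gene, 14 in the mural cell-enriched libraries, 778 with no filter on low counts and 137 to 756 with 1 mouse left out. In gCap ECs (95) these were 52 with the 1-UMI gate, 0 with a gate of 3 UMIs, 61 in the whole-cell and 13 in the mural cell-enriched libraries, 700 with no filter, 0 in Ntrk2 cells only and 26 to 962 with 1 mouse left out. In aCap ECs (0) they were 1 with the 1-UMI gate and 22 to 338 with 1 mouse left out. In arterial ECs (27) they were 63 and 91 with the 1- and 3-UMI gates, 46 with RLE normalization, 79 with no normalization factors, 209 with no filter and 49 to 137 with 1 mouse left out, and in venous ECs (0) 7 with RLE, 52 with no filter and 15 to 137 with 1 mouse left out. In Ptprc cells (0) they were 4 in the whole-cell libraries, 101 in DESeq2, 119 with no filter and 0 to 247 with 1 mouse left out, and in Pdgfra cells (0) 5, 672 in DESeq2, 272 with no factors and 0 to 885. In Msln cells (13) they were 34 with the 1-UMI gate and with no UMI of another group's gene, 1 in the whole-cell and 45 in the mural cell-enriched libraries, 4 at a mitochondrial limit of 10%, 65 in DESeq2, 23 with no factors, 454 with no filter and 7 to 324 with 1 mouse left out. In mural cells (16) they were 0 with the 1-UMI gate, with no UMI of another group's gene, in either pool alone and with RLE, 1 with the 3-UMI gate, 50 at 10% mitochondrial UMIs, 337 in DESeq2, 89 with no factors, 1252 with no filter and 1 to 618 with 1 mouse left out.

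Of the other counts, gCap against the other types (1141) gave 623 with the 1-UMI gate and 710 to 1083 with 1 mouse left out, and arterial (1285) 750 with that gate. ECs against Ptprc, Pdgfra and mural cells (12215, 11791 and 11737) gave 6804, 7771 and 7824 in the mural cell-enriched libraries. Ntrk2 against other gCap ECs (473) gave 197 in DESeq2 and 224 to 467 with 1 mouse left out, and 0 to 1 members passed either interaction family with 1 mouse left out. The alternatives for Ntrk2 cells and the mice left out of the Ntrk2 and interaction tests were chosen after seeing the data. A mouse left out leaves 1 mouse in a genotype, assumed to vary like the others.

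Folds that turned were mostly near 0. Icam2 between genotypes in all ECs (-0.01) was 0.0495 with the 1-UMI gate, 0.0447 with no UMI of another group's gene, 0.0845 in the mural cell-enriched libraries, 0.0244 with no filter and -0.0321 to 0.0244 with 1 mouse left out. Icam1 was 0.0875 and 0.11 with those 2 gates in Ptprc cells (-0.15 to 0.0448 with 1 mouse left out), 0.0508 in aCap ECs with no UMI of another group's gene, and 0.16 in Msln cells in the whole-cell libraries (-0.76 to 0.22). Vcam1 in all ECs was 0.0783 in the mural cell-enriched libraries. Vcam1 in ECs against mural cells was 0.0305 and 0.0671 with the 1- and 3-UMI gates, 0.21 with no UMI of another group's gene, 0.68 in the whole-cell libraries, 0.0214 in DESeq2, 0.0147 with RLE and 0.13 with no factors. Against Msln cells Selplg was -0.0336 in the whole-cell and -1.07 in the mural cell-enriched libraries, where Vcam1 was -0.45 and Icam1 -0.46 (Icam1 -0.0676 to 0.28 with 1 mouse left out). In the same libraries Vcam1 was -1.85 against Ptprc cells and Selplg -0.10 against Pdgfra and -1.24 against mural cells. Icam1 in arterial ECs against other types ran from -0.38 to 0.061, and Selp in Ntrk2 cells from -1.19 to 0.30, with 1 mouse left out.

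With replicate number as a block, 542 genes were called in all ECs, 493 in gCap, 33 in aCap, 173 in arterial and 50 in venous ECs, 198 in Ptprc, 1333 in Pdgfra, 123 in Msln and 661 in mural cells. Members then called besides Icam1 in gCap ECs (-0.83, adjusted p = 0.000919) were Icam1 in all ECs (-0.49, 0.0489), arterial ECs (-1.36, 0.000418), Pdgfra (-1.02, 0.0112) and mural cells (-0.73, 0.00855), Vcam1 in arterial (-1.14, 0.00767) and venous ECs (-1.49, 7.31e-05) and, higher, in Msln cells (0.93, 0.0186), Selp in arterial (-1.85, 0.00024) and venous ECs (-1.04, 0.0241), and Sele in venous ECs (-1.83, 1.73e-06). The deviations of same-numbered mice correlated at 0.204 in all ECs, 0.181 in gCap ECs, 0.0718 in venous and 0.0635 in arterial ECs and 0.457 in Pdgfra cells. With Xist and Y-linked genes left out, these were 0.133, 0.114, 0.0539, 0.0277 and 0.398. The labels do not say that a number marks a shared litter. Tests of arterial and venous ECs and of the types were not run where a mouse had under 10 cells under an alternative, and lymphatic ECs not at all. The number of cells limits Sele and Selp in the venous ECs of WT 1 (11 cells).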

Other observations

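Lymphatic ECs, with 2 to 15 cells a mouse, were left without a test. Icam2 was at 407, 187, 241 and 113 CPM there in WT 1, WT 2, Tubb3-/- 1 and Tubb3-/- 2, and Icam1 at 882, 0, 48.3 and 191 CPM, from 86 and 76 UMIs in all. Selp had 1 UMI, Sele 3 UMIs, and Selplg and Madcam1 none in the 36 cells. Among the 10 inflammatory (Lcn2) fibroblasts of WT 1, 1 cell held 30 Selp UMIs, all that this group had in that mouse.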
